A study of Mus musculus with 12 samples.

Results

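The genes described here were Cav1, Cav2, Cavin1, Cavin2, Cavin3 and Ehd2, which encode the coat of caveolae. They were taken by gene symbol from a table of 56748 mouse genes, in which each symbol stood on 1 identifier, and 6 of 6 were among the 16465 genes that passed the filter on low counts. They were chosen by name with their values in view, since the log2 fold changes of Cav1 and Cav2 were already known to be above 0 on collagen with ACLP against collagen alone. Differences of the 6 genes from collagen alone are therefore given as descriptions, and a p-value is given for them only in the comparison of the inhibitor-treated cells with the cells on ACLP. That comparison uses the same 4 libraries on ACLP in which Cav1 and Cav2 were known to be high.

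Caveolae are flask-shaped pits in the plasma membrane of fibroblasts, adipocytes, endothelial cells and muscle, and they flatten when the membrane is stretched. Caveolins are hairpin proteins that insert into the membrane, oligomerise and bind cholesterol. Cavins are cytosolic proteins that assemble on caveolin-rich membrane and shape the pit, and EHD2 is an ATPase of the caveolar neck that holds the pit at the cell surface.

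The cells were wild-type C3H10T1/2 cells (spelled CH310T1/2 in the sample labels), a mouse embryonic mesenchymal line, and polyadenylated RNA was sequenced from 4 libraries in each of 3 groups. All cells spent 1 h in suspension, in 0.5% serum by the labels and without serum by the methods, and then 18 h on 12 kPa hydrogels under a coat of type I collagen (0.05 mg/ml). By the methods they were starved overnight in 0.5% serum before the suspension, and were seeded on the hydrogels in 0.5% serum. The coating was collagen alone (col1), collagen carrying 30 nM recombinant aortic carboxypeptidase-like protein (col1-ACLP), a secreted collagen-binding protein encoded by Aebp1, or the same ACLP coating with SB431542 at 5 µM, an inhibitor of the TGFβ receptor kinase ALK5 (col1-ACLP+SB). No group received the inhibitor on collagen alone, so an effect of SB431542 that does not depend on ACLP cannot be told apart from one that does. All libraries came from 1 cell line, and the p-values measure the spread between these libraries. Counts assigned to genes were between 32264826 and 42543707 per library on col1, between 29246154 and 36322113 on col1-ACLP and between 29995224 and 52201922 with SB431542 added. Along the first principal component of all tested genes, replicate 2 of col1 lay at -86.7 and the other libraries lay between -11.1 and 20.6, so differences of the 6 genes from col1 and list counts are also given without it.

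The table puts Cav2 on chromosome 6 from 17281184 to 17289114 and Cav1 17219 bases downstream, from 17306334 to 17341451, both on the plus strand. Cavin1 lies on chromosome 11 from 100847559 to 100861713 on the minus strand, Cavin2 on chromosome 1 from 51328285 to 51342119 on the plus strand, and Cavin3 and Ehd2 on the minus strand of chromosome 7, from 105129290 to 105131507 and from 15680883 to 15701492. These positions were those of the GRCm39 build. RefSeq promoter windows of 300 bases, from 250 before a start site to 50 after it, were found for 5 of 6 genes, each with 1 exact match on its GRCm39 chromosome, and 3 are shown because their genes held the largest differences between groups. The following motifs were searched on both strands, and no matches overlapped: the CArG box bound by SRF, CATTCC bound by TEAD factors, TGANTCA bound by AP-1, CAGAC bound by SMAD proteins and CCAAT bound by NF-Y. The RefSeq starts of Cav1 and Cav2 are those of the count table, while that of Cavin1 lies 270 bases downstream of the gene's start in the table, so that its window lies inside the gene as counted. Capitals mark the matches.
Cav1, chr6:17306084-17306383, plus strand: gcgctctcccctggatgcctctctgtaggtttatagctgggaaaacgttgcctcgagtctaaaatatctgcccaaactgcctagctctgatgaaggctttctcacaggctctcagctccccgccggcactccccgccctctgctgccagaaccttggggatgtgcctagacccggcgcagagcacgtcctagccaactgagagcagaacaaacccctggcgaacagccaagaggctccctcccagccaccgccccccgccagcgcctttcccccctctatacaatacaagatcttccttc
Cav2, chr6:17280934-17281233, plus strand: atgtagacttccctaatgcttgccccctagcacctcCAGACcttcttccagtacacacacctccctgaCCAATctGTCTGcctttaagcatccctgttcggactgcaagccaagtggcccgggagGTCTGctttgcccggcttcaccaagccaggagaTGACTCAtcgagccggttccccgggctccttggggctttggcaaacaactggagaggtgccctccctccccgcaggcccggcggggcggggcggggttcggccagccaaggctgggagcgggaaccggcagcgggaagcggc
Cavin1, chr11:100861394-100861693, minus strand: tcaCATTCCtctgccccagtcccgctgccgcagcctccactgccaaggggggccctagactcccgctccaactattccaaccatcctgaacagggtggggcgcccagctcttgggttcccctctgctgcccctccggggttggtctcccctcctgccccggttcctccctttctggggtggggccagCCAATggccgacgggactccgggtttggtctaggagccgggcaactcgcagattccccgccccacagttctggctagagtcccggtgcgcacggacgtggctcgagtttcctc

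The Cav1 window held none of the motifs, which says only that these letters were not in these 300 bases, and 59.3% of its bases were G or C. The Cav2 window held 1 TGANTCA match beginning 92 bases before the start, 3 CAGAC matches and 1 CCAAT match, at 64.3% GC. The Cavin1 window held 1 CATTCC and 1 CCAAT match at 66.7% GC. Among 32851 mouse promoter windows of the same length, 1.63% held a CArG box, 14.7% CATTCC, 7.81% TGANTCA, 49.6% CAGAC and 37.4% CCAAT, and the median GC content was 52.7%. The windows of Cavin2 and Ehd2 each held 1 CCAAT match, and that of Ehd2 also 1 CAGAC match.

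Cav1 encodes caveolin-1, the caveolin without which non-muscle cells form no caveolae. Its CPM values (read counts scaled to library size and by TMM factors) were 27.2, 23.2, 28.1 and 29.8 in the 4 libraries on col1. They were 63.5, 55.8, 56.5 and 73.8 on col1-ACLP, and 49.2, 45.4, 44.7 and 40.0 with SB431542 added. The groups did not overlap: every library on ACLP without inhibitor was above every library with it, and every library with it was above every library on collagen alone. The means were 27.1 ± 2.81 on col1, 62.4 ± 8.35 on col1-ACLP and 44.8 ± 3.79 with SB431542 added (SD, n = 4 in each). On the log2 scale Cav1 was 1.20 higher on col1-ACLP than on col1 (standard error 0.0918, 95% interval 1.01 to 1.39), a 2.30-fold difference. Without replicate 2 of col1 the value was 1.14. Under SB431542 the log2 fold change from col1 was 0.73 (95% interval 0.54 to 0.92), and 0.66 without that library. In bulk RNA a difference in the level per cell and a difference in the share of cells that express a gene cannot be told apart.

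The comparison of col1-ACLP+SB with col1-ACLP asks how transcripts of cells on the ACLP matrix differ when SB431542 is added. Cav1 fell there by 0.48 on the log2 scale (standard error 0.0899, 95% interval -0.66 to -0.29), with an adjusted p of 0.00554 in the edgeR quasi-likelihood test, adjusted by Benjamini-Hochberg over all tested genes. It was the 1 gene of the 6 that passed, lower, where 1.48% of all tested genes passed (0.571% higher and 0.905% lower). The higher ones were 38.7% of these calls, and 59% when libraries were scaled by size alone, where Cav1 still passed as lower. Without overlap between the groups, 0 of the 6 genes lay above and 2, Cav1 and Cav2, below, against 3.65% and 4.52% of all tested genes. The adjusted p stayed below 0.05 in 21 of 21 other settings of the test. These include the same fit with an added threshold on the log2 fold change, whose p could not differ. The adjusted p was highest, at 0.0372 in edgeR's test, without replicate 4 of col1-ACLP, the library with the highest Cav1, where the log2 fold change was -0.39. The change was smaller than the threshold of 0.58 that the study placed on log2 fold changes, which 0.128% of all tested genes passed together with the adjusted p.

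**Figure D1:**
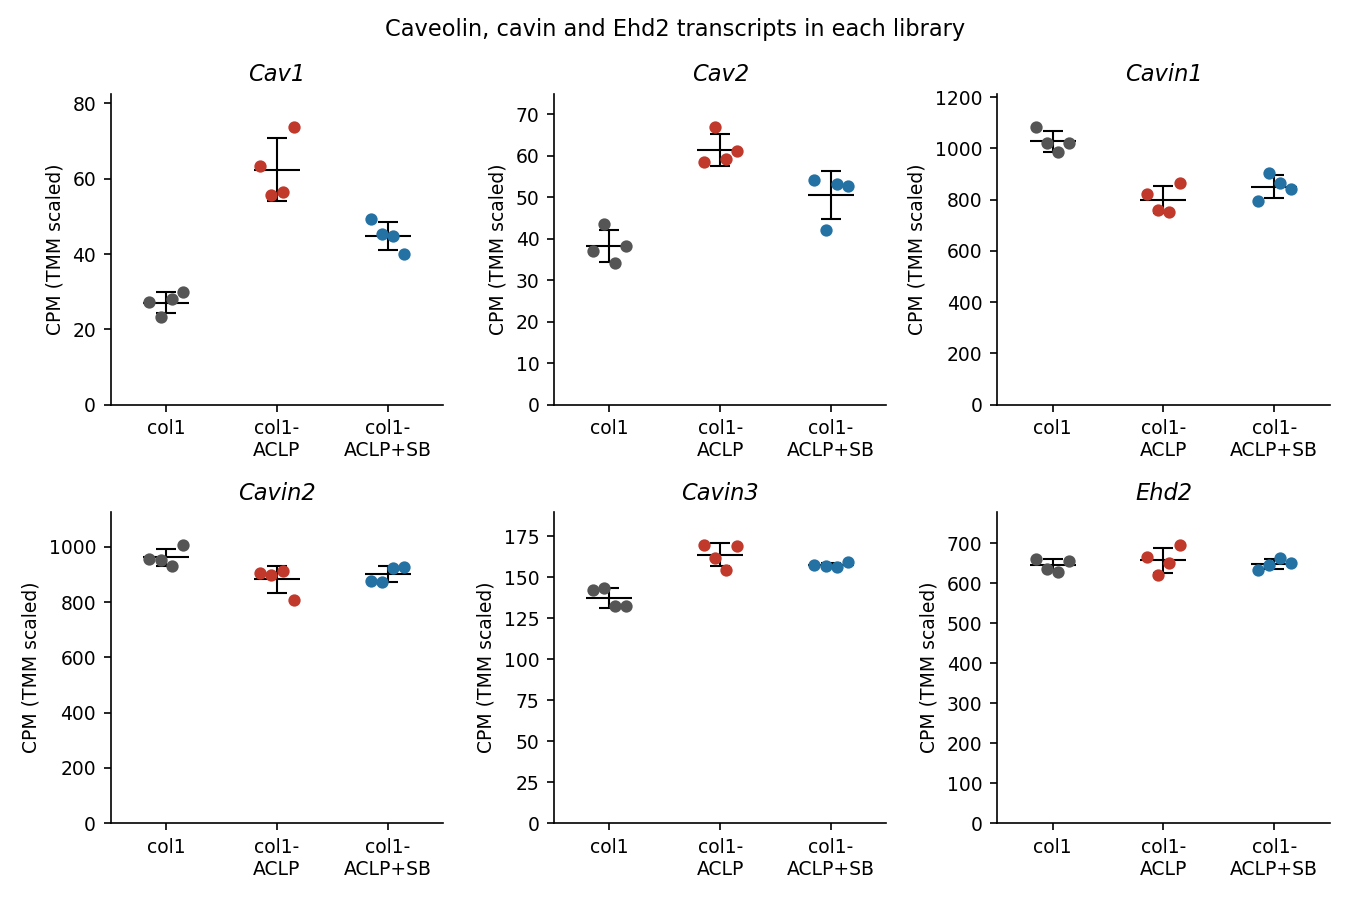
CPM after TMM scaling (y axis, from 0, its own scale in each panel) of the 6 genes in the 4 libraries of each group. Points are libraries, long bars means and short bars 1 SD; Cav1 runs from 23.2 to 29.8 on col1 and from 55.8 to 73.8 on col1-ACLP, and Ehd2 stays between 620 and 695 throughout.

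Cav2 encodes caveolin-2, which hetero-oligomerises with caveolin-1 and needs it to leave the Golgi. Its CPM values were 37.1, 43.6, 34.2 and 38.3 on col1, 58.4, 66.9, 59.1 and 61.1 on col1-ACLP, and 54.1, 42.0, 53.3 and 52.7 with SB431542 added. The 4 libraries on col1-ACLP lay above all others, while replicate 2 of col1-ACLP+SB, at 42.0, lay below replicate 2 of col1 at 43.6, so col1 and col1-ACLP+SB overlapped. The means were 38.3 ± 3.91, 61.4 ± 3.87 and 50.5 ± 5.70 (SD, n = 4 in each). Relative to col1, Cav2 was 0.68 higher on the log2 scale on col1-ACLP (standard error 0.0834, 95% interval 0.51 to 0.85) and 0.40 higher on col1-ACLP+SB (0.23 to 0.57), or 0.75 and 0.47 without replicate 2 of col1. Between col1-ACLP+SB and col1-ACLP the log2 fold change was -0.28 (95% interval -0.45 to -0.11), and the adjusted p of 0.0971 in edgeR's quasi-likelihood test did not pass. That call depended on the procedure: the adjusted p was 0.0131 in edgeR's test without a filter on low counts, 0.0379 in DESeq2 and 0.301 in edgeR's test without replicate 2 of col1-ACLP+SB, where the log2 fold change was -0.20.

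The level of Cav1 moved further than that of Cav2. Divided by gene length in the table, the ratio of Cav1 to Cav2 was 0.694 ± 0.124 on col1, with libraries from 0.516 to 0.796. On col1-ACLP it was 0.989 ± 0.157, from 0.807 to 1.17, so that both caveolins stood at about the same level per kilobase and no col1-ACLP library was as low as any on col1. On col1-ACLP+SB the ratio was 0.868 ± 0.133 (SD, n = 4), and its range of 0.734 to 1.05 overlapped both other groups.

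Cavin1 encodes the cavin that all caveolae require, and in these cells it went the other way from the caveolins. Its CPM values were 1084, 1022, 985 and 1021 on col1, 823, 760, 752 and 864 on col1-ACLP, and 795, 902, 865 and 842 with SB431542 added. Every library on col1 was above every library of the other groups, which overlapped each other. The means were 1028 ± 41.1, 800 ± 53.2 and 851 ± 45.1 (SD, n = 4). On the log2 scale Cavin1 was lower than on col1 by 0.36 on col1-ACLP (log2 fold change -0.36, standard error 0.0483, 95% interval -0.46 to -0.26) and by 0.27 on col1-ACLP+SB (log2 fold change -0.27, 95% interval -0.37 to -0.17). Its log2 fold change between the ACLP groups was 0.09 with an interval of -0.01 to 0.19, and the adjusted p was 0.461 in edgeR's quasi-likelihood test. A long noncoding gene on the opposite strand overlaps Cavin1 and took 2608 counts over the 12 libraries, against at least 22521 for Cavin1 in each.

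Cavin2 encodes a cavin that binds phosphatidylserine and recruits Cavin1, and Cavin3 encodes one that links caveolae to protein kinase C and is recruited through Cavin1. Cavin2 CPM values were 958, 953, 932 and 1005 on col1, 907, 900, 912 and 809 on col1-ACLP, and 877, 874, 922 and 928 with SB431542 added. Those of Cavin3 were 142, 144, 132 and 132, then 169, 162, 155 and 169, then 158, 157, 156 and 159 in the same order of groups. For both genes the col1 libraries stood apart from those of the ACLP groups, above them for Cavin2 and below them for Cavin3. The gap was narrow for Cavin2, whose lowest col1 library was at 932 and whose highest ACLP library was at 928. For Cavin2 the log2 fold change from col1 was -0.13 on col1-ACLP (95% interval -0.21 to -0.04), or -0.08 without replicate 4 of col1-ACLP, and -0.10 on col1-ACLP+SB (-0.19 to -0.01). For Cavin3 it was 0.25 on col1-ACLP (95% interval 0.15 to 0.35) and 0.20 with SB431542 added (0.09 to 0.30). Without replicate 2 of col1 the values on col1-ACLP were -0.36 for Cavin1, -0.13 for Cavin2 and 0.27 for Cavin3. On col1-ACLP+SB they were -0.28, -0.10 and 0.22. Between the ACLP groups, the edgeR fit put Cavin2 at 0.03 on the log2 scale (95% interval -0.06 to 0.12, adjusted p = 0.868) and Cavin3 at -0.06 (-0.16 to 0.05, adjusted p = 0.734).

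Ehd2, which encodes the neck ATPase, held the smallest differences of the 6 genes. Its CPM values were 660, 637, 629 and 656 on col1, 665, 620, 652 and 695 on col1-ACLP, and 633, 646, 665 and 650 with SB431542 added. All groups overlapped, with means of 646 ± 14.9, 658 ± 31.3 and 648 ± 12.8 (SD, n = 4). The log2 fold change was 0.03 on col1-ACLP against col1 (95% interval -0.06 to 0.11) and 0.01 with SB431542 added against col1 (-0.08 to 0.09), or 0.02 and -0.0003 without replicate 2 of col1. It was -0.02 between the ACLP groups (-0.11 to 0.06), with an adjusted p of 0.908 in edgeR's quasi-likelihood test. Scaled by library size alone the sign of the first and the last of these values turned, to -0.02 and 0.01.

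**Figure D2:**
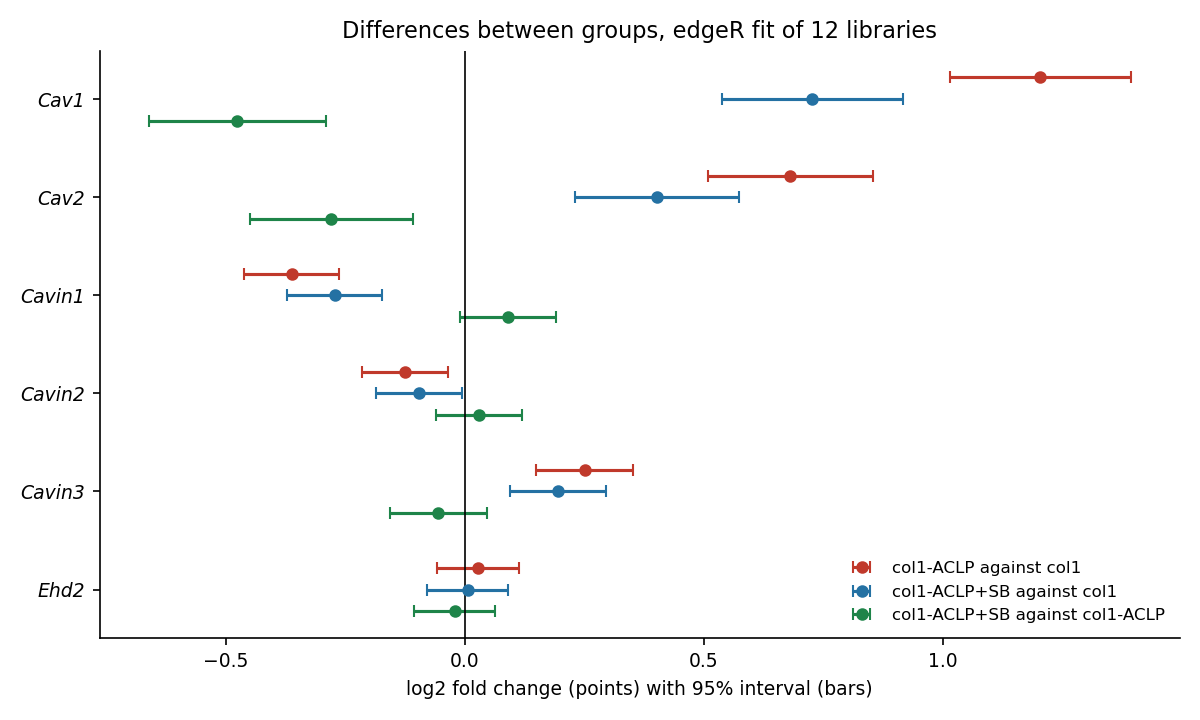
Log2 fold changes (x axis, points) with 95% intervals (bars) of the 6 genes in the edgeR fit of 12 libraries, for col1-ACLP against col1, col1-ACLP+SB against col1 and col1-ACLP+SB against col1-ACLP. Cav1 and Cav2 lie to the right of 0 against col1, at 1.20 and 0.68 for col1-ACLP, Cavin1 lies to the left at -0.36, and the intervals of Ehd2 span 0.

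The choice of genes used the difference from col1, so the following counts describe the 6 genes and nothing is read from them. Past the adjusted threshold of 0.05 in the edgeR fit were 3 genes higher and 2 lower on col1-ACLP than on col1, where 17.9% of all tested genes passed (9.52% higher and 8.41% lower, so that 53.1% of the calls were higher, or 38.3% with scaling by library size alone). The 2 lower genes became 1 without a filter on low counts, with the replicate number as a block, and without any one of replicates 1, 2 and 4 of col1, replicates 1 and 4 of col1-ACLP and replicates 1 and 4 of col1-ACLP+SB. On col1-ACLP+SB against col1 3 were higher and 1 lower, where 9.13% of all tested genes passed (4.6% higher and 4.54% lower). With a log2 fold change beyond 0.58 as well, 2 of the 6 remained on col1-ACLP against 4.97% of all tested genes, and 1 with SB431542 added against 2.28%. Libraries of col1-ACLP lay wholly above those of col1 for 3 of the 6 genes and wholly below for 2, against 10.9% and 10.3% of all tested genes. With SB431542 added the counts were 2 above and 2 below, against 6.7% and 6.32%. Both comparisons share the col1 libraries. The median log2 fold change of all tested genes was within 0.01 of 0 in each comparison.

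Levels between genes were compared as CPM per kilobase of the gene length listed in the table. By the group means the order was the same in all groups: Cavin2, Cavin1, Ehd2, Cavin3, Cav2, Cav1. On col1 the means per kilobase were 315 ± 10.1 for Cavin2, 287 ± 11.5 for Cavin1, 126 ± 2.90 for Ehd2, 82.8 ± 3.69 for Cavin3, 11.5 ± 1.17 for Cav2 and 7.86 ± 0.816 for Cav1 (SD, n = 4). No neighbours in that order overlapped between libraries on col1, whereas Cav1 and Cav2 overlapped on col1-ACLP, where their means were 18.1 ± 2.42 and 18.4 ± 1.16, and with SB431542 added, where they were 13.0 ± 1.10 and 15.2 ± 1.71. The transcripts of the cavins and of Ehd2 were thus among the most abundant in the cells, while those of the caveolins were of middling abundance. On col1 the level of Cavin1 exceeded that of 99.5% of the tested genes, that of Ehd2 98.3% and that of Cav1 65.5%, and on col1-ACLP Cav1 exceeded 83.2%.

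The ratio of Cavin1 to Cav1 is given as a description, since Cav1 was chosen with its rise on col1-ACLP in view. Of all pairs among the 6 genes, this pair also differed most in pattern over the 12 libraries. It does not stand for the cavins as a set: on col1-ACLP against col1 the log2 fold change was 0.25 for Cavin3 and -0.13 for Cavin2. Ratios of Cavin2 or Cavin3 to a caveolin were not computed. The ratio of Cavin1 to Cav1 per kilobase was 36.8 ± 4.38 on col1, 12.4 ± 0.806 on col1-ACLP and 18.4 ± 2.01 with SB431542 added (SD, n = 4). No library overlapped between groups, with 32.9 to 42.3 on col1, 11.2 to 13.1 on col1-ACLP and 15.5 to 20.2 with SB431542 added. How many other ratios separate as well was not computed. Of single tested genes, 10.9% lay wholly above and 10.3% wholly below on col1-ACLP against col1. The shares were 6.7% and 6.32% on col1-ACLP+SB against col1, and 3.65% and 4.52% between the ACLP groups. Without replicate 2 of col1, the library with the highest ratio, the col1 mean was 34.9. Of the summed level of the 6 genes, Cav1 and Cav2 made up 0.948% and 1.38% on col1, 2.33% and 2.38% on col1-ACLP, and 1.67% and 1.94% with SB431542 added. Cavin1 made up 34.5%, 28.7% and 30.4%. Among the cavins, the ratio of Cavin3 to Cavin1 was 0.289 ± 0.0104 on col1, 0.443 ± 0.0149 on col1-ACLP and 0.400 ± 0.0229 with SB431542 added. The ratio of Ehd2 to Cavin1 was 0.441 ± 0.0107, 0.578 ± 0.0203 and 0.535 ± 0.0240 (SD, n = 4 in each). These ratios of transcripts do not give the ratios of the proteins.

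**Figure D3:**
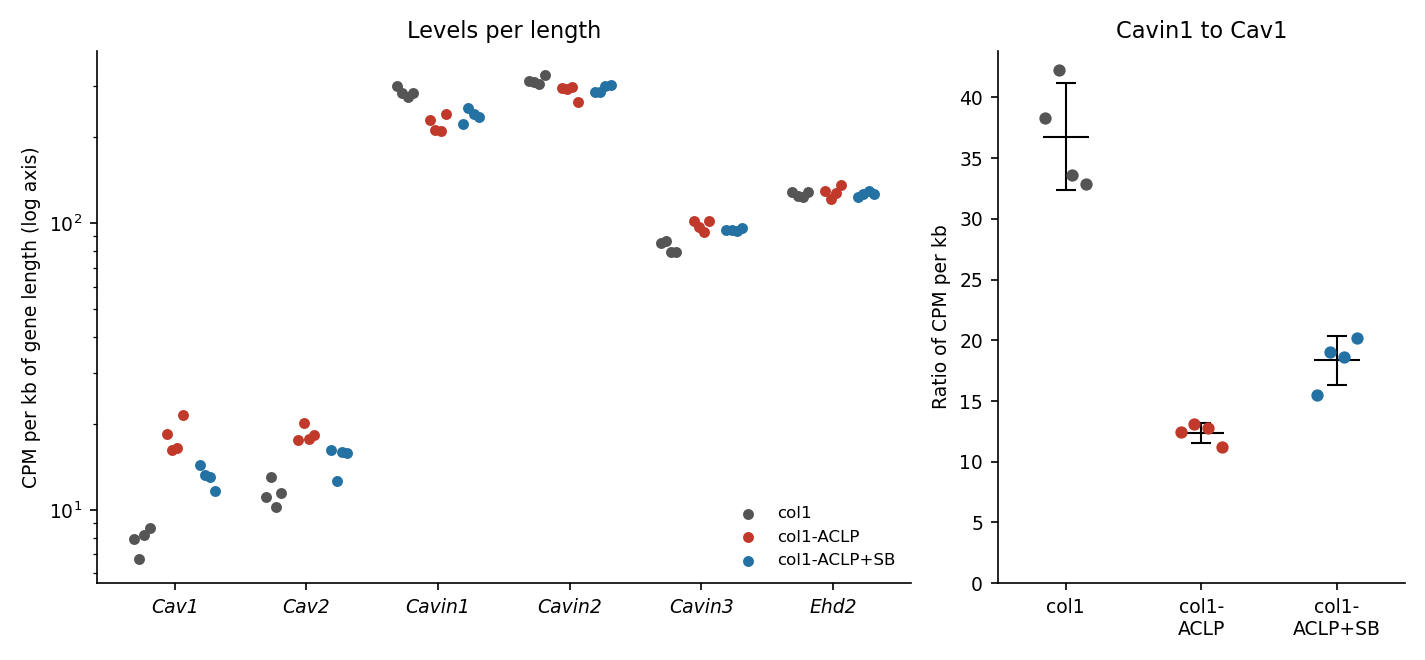
Left, CPM per kilobase of gene length (y axis, log scale) of the 6 genes in each of the 12 libraries, coloured by group. Right, the ratio of Cavin1 to Cav1 per kilobase (y axis, from 0) in each library with the mean and 1 SD, at 32.9 to 42.3 on col1, 11.2 to 13.1 on col1-ACLP and 15.5 to 20.2 with SB431542 added.

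The genes on either side of Cav2 and Cav1 were examined next. Within 500 kb of the pair the table lists 24 other genes, of which 11 had a count in any library and 5 were tested. Tes, which encodes the focal adhesion protein testin, had CPM values of 13.5, 11.7, 13.2 and 13.7 on col1, 21.1, 17.9, 20.3 and 23.1 on col1-ACLP, and 18.9, 16.8, 13.4 and 16.2 with SB431542 added. Met, the receptor of hepatocyte growth factor on the other side of the pair, was at 12.6, 13.1, 13.4 and 11.3, then 19.9, 18.7, 19.6 and 21.8, then 15.3, 11.5, 16.7 and 20.7. Both were higher in every library on col1-ACLP than in any on col1, as were 10.9% of all tested genes. Capza2, a subunit of the actin capping protein, went from 110 ± 1.43 to 128 ± 5.71 CPM without overlap (SD, n = 4). By the edgeR quasi-likelihood test, adjusted by Benjamini-Hochberg, Tes rose on col1-ACLP by a log2 fold change of 0.66 (adjusted p = 0.000109), Met by 0.67 (adjusted p = 0.000439) and Capza2 by 0.21 (adjusted p = 0.00485). These were 3 of the 5 neighbours, where 17.9% of all tested genes passed, and genes of 1 region are not independent of each other. Without replicate 2 of col1 the count was also 3. St7 (log2 fold change 0.30, adjusted p = 0.0592) and the low Gm4876 (0.52, adjusted p = 0.706), which overlaps Tes on the other strand, did not pass that test. Of the 5, 0 passed by edgeR on col1-ACLP+SB against col1, where 9.13% of all tested genes passed, and 3 had an unadjusted p under 0.05, as 19.9% of all tested genes did. There Tes stood at 0.33 (adjusted p = 0.078 by edgeR), Met at 0.35 (0.101), Capza2 at 0.10 (0.294) and St7 at 0.33 (0.0581), but DESeq2 and limma-voom each called 1. Between the ACLP groups 0 passed by edgeR, DESeq2 or limma-voom, where 1.48% of all tested genes passed by edgeR, and 3 had an unadjusted p under 0.05 in edgeR's test against 12.8% of all tested genes, with log2 fold changes of -0.33 for Tes (adjusted p = 0.156 by edgeR), -0.32 for Met (0.264), -0.11 for Capza2 (0.375) and 0.03 for St7 (0.959).

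**Figure D4:**
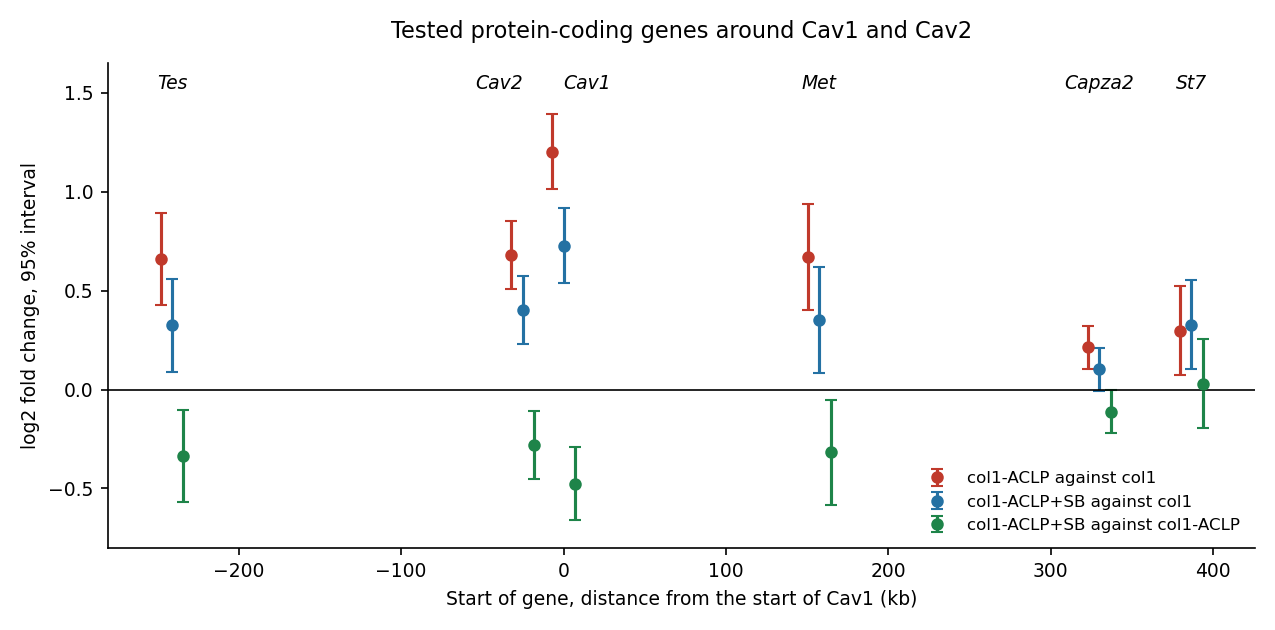
Log2 fold changes with 95% intervals (y axis) of Tes, Cav2, Cav1, Met, Capza2 and St7 against the distance of each gene's start from that of Cav1 in kilobases (x axis, the points of 1 gene set side by side), for the 3 comparisons named in the legend. The low gene Gm4876 is not drawn, and the points of col1-ACLP against col1 lie above 0 at every gene shown, from 0.21 for Capza2 to 1.20 for Cav1.

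Other proteins that build or act on caveolae were described from a list of 19, of which 17 were tested. On that list 4 rose and 3 fell on col1-ACLP against col1 by edgeR's quasi-likelihood test, where 17.9% of all tested genes passed, and the median log2 fold change of the list was 0.05. The 7 that passed were 4 without replicate 4 of col1-ACLP and 4 with scaling by library size alone. Flna, the actin crosslinker filamin A that ties caveolae to stress fibres, rose by 0.23 on the log2 scale (adjusted p = 0.00019 by edgeR). Dnm1, a dynamin that cuts membrane necks, stood at -0.41 (adjusted p = 2.99e-05), the kinase Abl1 at -0.38 (1.22e-06) and Pacsin2, an F-BAR protein of the caveolar neck, at -0.25 (0.000248). The other genes that rose were Ehd1 at 0.21 and Ehd3 at 0.19, relatives of Ehd2, and the dynamin Dnm2 at 0.17, named after their values were seen. On col1-ACLP+SB against col1 2 were higher, Flna and Dnm2, and 2 lower, Pacsin2 and Abl1, with a list median of -0.02, where 9.13% of all tested genes passed. Between the ACLP groups, where 1.48% of all tested genes passed, 1 of the 17 passed, Dnm1 at 0.25 on the log2 scale (adjusted p = 0.0432 by edgeR), and the count fell to 0 in 9 of the 12 fits that each left out 1 library. The list median there was -0.06. The muscle forms were low: Cav3 had 0 counts in every library, and Cavin4 was at 2.06 ± 0.774 CPM on col1, 3.12 ± 0.966 on col1-ACLP and 2.13 ± 1.43 with SB431542 added (SD, n = 4) and passed in no comparison by edgeR (adjusted p = 0.317, 0.977 and 0.604).

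Clathrin-coated pits are the other main route of uptake at the plasma membrane. Of 28 listed clathrin pathway genes 25 were tested, and 10 rose and 2 fell on col1-ACLP against col1 in edgeR's test, where 9.52% of all tested genes were higher and 8.41% lower, with a list median of 0.06 on the log2 scale. The largest were the light chain Cltb at 0.34 (adjusted p = 0.00028 by edgeR), the assembly protein Picalm at 0.27 (2.95e-05), the actin linker Hip1 at 0.27 (0.00165) and the adaptor subunit Ap2m1 at 0.24 (0.000264). Those that fell were the membrane-curving protein Bin1 and the cargo adaptor Dab2, both at -0.19, named after their values were seen. On col1-ACLP+SB against col1 3 were higher and 1 lower, where 9.13% of all tested genes passed. Of the 25, 0 passed edgeR's adjusted threshold between the ACLP groups, where 1.48% of all tested genes passed, DESeq2 called 2, and 5 had an unadjusted p under 0.05 in edgeR's test against 12.8% of all tested genes. For Cltb that difference was -0.21 (95% interval -0.35 to -0.08, adjusted p = 0.0977 by edgeR).

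Flotillins and their relatives of the SPFH family form membrane scaffolds without caveolins. Of 9 tested members of the family, 0 rose and 1 fell on col1-ACLP against col1 by edgeR's test, where 17.9% of all tested genes passed, and 2 passed with scaling by library size alone. The gene that fell was Stom, which encodes stomatin, at -0.35 on the log2 scale (adjusted p = 0.000467 by edgeR), and it was also lower on col1-ACLP+SB against col1, at -0.27 (0.00851), as the 1 gene of the 9 that passed there against 9.13% of all tested genes. The flotillin genes, looked up after the values were seen, were at -0.02 for Flot1 (adjusted p = 0.883 by edgeR) and -0.11 for Flot2 (0.19) on col1-ACLP against col1. Under SB431542 0 of the 9 passed relative to col1-ACLP by edgeR, DESeq2 or limma-voom, where 1.48% of all tested genes passed by edgeR, and 0 had an unadjusted p under 0.05 in edgeR's test.

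Caveolins bind cholesterol, and 11 of 12 listed genes of cholesterol uptake and transfer were tested. Stard4, a cytosolic carrier of cholesterol, was at 38.9, 36.6, 36.6 and 35.4 CPM on col1, 58.6, 63.2, 63.1 and 68.4 on col1-ACLP, and 53.6, 51.6, 50.04 and 54.4 with SB431542 added. These groups did not overlap. Of all tested genes, 10.9% lay wholly above on col1-ACLP against col1 and 6.7% on col1-ACLP+SB against col1, and 4.52% lay wholly below between the ACLP groups. By edgeR's quasi-likelihood test Stard4 was higher by 0.78 on the log2 scale on col1-ACLP against col1 (adjusted p = 1.32e-09), by 0.51 on col1-ACLP+SB against col1 (3.8e-06), and fell by 0.27 between the ACLP groups (0.0296). The efflux pump Abca1 was at -0.58 on col1-ACLP (adjusted p = 0.000959 by edgeR) and -0.39 on col1-ACLP+SB (0.0415), and the sterol carrier Gramd1a at -0.32 on col1-ACLP (0.000818). In all, 1 of the 11 rose and 3 fell on col1-ACLP, where 17.9% of all tested genes passed, the other that fell being Scp2 at -0.25, named after its values were seen. On col1-ACLP+SB against col1, where 9.13% of all tested genes passed, 2 were higher and 1 lower, among them Gramd1b, a relative of Gramd1a, at 0.45 (adjusted p = 0.0229 by edgeR). Those 3 became 1 without replicate 4 of col1 or without replicate 1 or 2 of col1-ACLP+SB. Under SB431542 relative to col1-ACLP 0 rose and 1, Stard4, fell, where 1.48% of all tested genes passed. That count was 0 without any one of replicates 2, 3 and 4 of col1-ACLP or replicates 1, 2 and 4 of col1-ACLP+SB. The list medians were -0.02, 0.03 and 0.05 in the 3 comparisons.

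**Figure D5:**
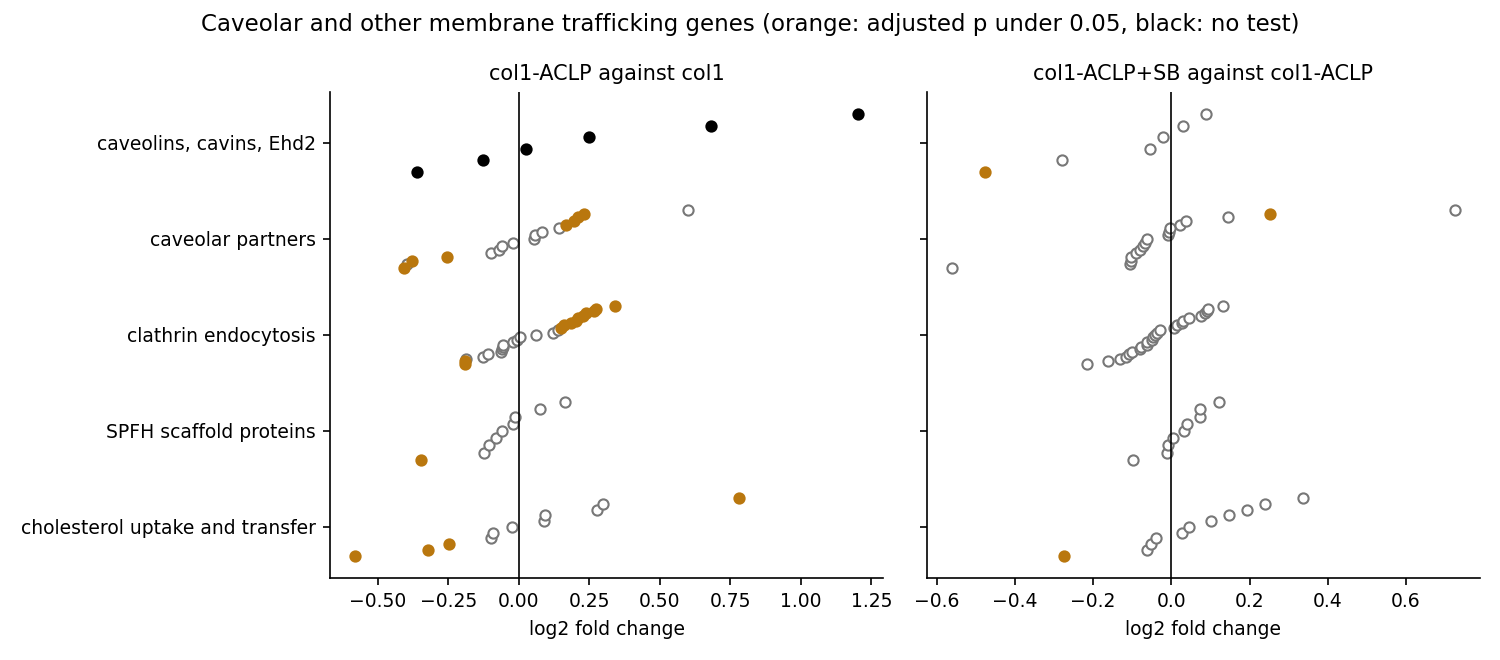
Log2 fold changes (x axis) of the 6 genes and of each tested gene of the 4 lists (rows, 1 point a gene) for col1-ACLP against col1 and for col1-ACLP+SB against col1-ACLP. Orange points had an adjusted p under 0.05 in edgeR's test, open points did not, and black points carry no test; Cav1 at 1.20 is farthest right on the left side.

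Without replicate 2 of col1, 5 caveolar partners, 10 clathrin genes, 1 SPFH gene and 4 cholesterol genes passed on col1-ACLP against col1 in edgeR's test, in place of 7, 12, 1 and 4. On col1-ACLP+SB against col1 2, 3, 1 and 2 passed in place of 4, 4, 1 and 3. Of the list genes named above that had passed, Ehd1 and Ehd3 then did not pass on col1-ACLP against col1, and Flna, Dnm2 and Abca1 did not on col1-ACLP+SB against col1.

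The likeness of pattern was measured over the 12 libraries as the root mean square difference of log2 CPM after centring each gene on its mean, and is descriptive. Among the genes nearest to Cav1 were Aldh1l2, a mitochondrial folate enzyme, at 0.109, the amino acid transporter Slc7a5 at 0.116, asparagine synthetase Asns at 0.129 and smooth muscle actin Acta2 at 0.132. Nearest to Cav2 were the laminin-binding integrin subunit Itga6 at 0.0757, the protease Pappa2 at 0.0952, AI506816 at 0.103, and Ghitm and P2ry10b at 0.109 each. Cav1 and Cav2, though neighbours on the chromosome, differed from each other by 0.301. Among the 6 genes the most alike were Cavin2 and Ehd2, at 0.0974, and the least alike Cav1 and Cavin1, at 0.659.

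The labelled cell type was checked with marker lists. The summed CPM of 7 mesenchymal markers was 33500 to 34700 on col1, 43600 to 52500 on col1-ACLP and 40200 to 45800 with SB431542 added. By edgeR's test 2 of the 7 were higher on col1-ACLP against col1, Col1a1 at 0.82 and Col1a2 at 0.65 on the log2 scale, 2 were lower, Pdgfrb at -0.15 and Prrx1 at -0.16, and 3 did not pass, with a list median of 0.05, where 9.52% of all tested genes were higher and 8.41% lower. The 6 endothelial markers, of which 2 were tested, summed to 6.17 to 8.43 CPM on col1, 7.68 to 10.2 on col1-ACLP and 4.56 to 6.69 with SB431542 added, the last range wholly below that of col1-ACLP. Tek made up most of that sum and fell by 0.86 on the log2 scale between the ACLP groups (adjusted p = 0.0116 by edgeR), while Pecam1 had group means of at most 0.151 CPM and Cdh5 of at most 0.145. Adipocyte markers, of another cell type rich in caveolae, summed to 27.8 to 29.6 CPM on col1, 17.3 to 20.2 on col1-ACLP and 14.2 to 18.4 with SB431542 added, nearly all of it Pparg, and Adipoq was at most 0.0671 CPM in a group mean. Vascular smooth muscle markers summed to 65.4 to 68.9, 41.9 to 54 and 49.3 to 63.6 CPM in the same order of groups, nearly all of it Smtn, which was lower on col1-ACLP against col1 at -0.49 (adjusted p = 3.2e-05 by edgeR), while Acta2, which is not on that list, stood at 1.18 there. Striated muscle markers stayed between 0.651 and 2.65 CPM, with Myod1 and Myog at 0 in every library. Epithelial markers summed to 2.56 to 4.84 CPM with Epcam at 0, and their ranges overlapped between groups. Immune markers summed to 9.37 to 10.9 CPM on col1, 5.35 to 9.12 on col1-ACLP and 7.92 to 10.3 with SB431542 added, with Adgre1 and Cd3e at 0, and Cd68 was lower on col1-ACLP against col1 at -0.49 (adjusted p = 0.0284 by edgeR). The mesenchymal, endothelial, adipocyte, smooth muscle and immune sums moved with the groups, and their part in the differences of Cav1, Cav2 and Cavin1 was not tested.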

How the data were processed

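RNA from 12 cultures of C3H10T1/2 cells, 4 in each of 3 groups, was sequenced as 150-base read pairs after poly(A) selection. The authors aligned reads with HISAT2 (2.1.0 in the methods) and deposited raw counts per gene, beside a deposited gene length in bases. The labels name mm10 and the methods GRCm39, and the table's coordinates matched GRCm39. The counting tool, its strand setting and its treatment of multiply mapped reads are not given in the sources used here, so reads of a gene and its antisense partner may not be separated. Groups were taken from the sample labels.

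Counts were analysed as deposited with edgeR 4.0.16 in R 4.3.3 (filterByExpr, TMM, glmQLFit and glmQLFTest on group, 12 libraries in 1 fit). Of 56748 genes 29792 had a count and 40283 were left out by the filter. Genes passed at a Benjamini-Hochberg adjusted p under 0.05 over 16465 genes, and standard errors and intervals came from the same fit. The common biological coefficient of variation was 0.153. Library sizes of 29246154 to 52201922 counts put at least 876 counts behind each value of the 6 genes. DESeq2 1.42.0 and limma-voom (limma 3.58.1) were alternatives, with other scalings, filters, thresholds and single libraries left out. The procedure was tested on simulated counts, and its criterion for recovering changed genes was limited to well-expressed genes after a first run, since genes with low counts were recovered less often. Replicate libraries differed by more than counting error (chi-square over degrees of freedom, 7.22 to 19.5).

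The members and lists were chosen with earlier results of these data known. Genes named beside the 6 were, by rule, up to 4 genes per list with the largest log2 fold change among those that passed in any comparison, every tested gene within 500 kb of Cav1 and Cav2, and the 5 genes nearest in pattern to Cav1 and to Cav2. Among these, 1 gene that these rules named is not reported here and was left out of its list. Promoter windows came from RefSeq (on GRCm38.p6) and were matched to GRCm39. Where the table held 2 windows for a gene, the most upstream was used.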

Additional observations from a re-analysis of the deposited data

Results flagged for a closer look

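In 48 groups of 4 libraries, 4 held a library whose gap to the nearest other, as a share of the range, exceeded the 95% critical value of Dixon's test, and chance alone flags about 1 group in 20. Replicate 2 of col1-ACLP+SB had 42.0 CPM of Cav2 against 52.7 to 54.1 in the other libraries of its group, with a gap of 0.885 of the range. Replicate 4 of col1-ACLP had 809 CPM of Cavin2 against 900 to 912, with a gap of 0.879. Gm4876 was at 0 CPM in replicate 2 of col1 against 0.522 to 0.607 in the others (0.86 of the range), and at 1.51 CPM in replicate 1 of col1-ACLP+SB against 0.559 to 0.662 (0.893).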

How the results depend on the processing

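With the other scalings the mean levels and per-kilobase ratios of the 6 genes stayed within 1 SD. Leaving out 1 of 4 libraries can hardly move a mean by that much, so those fits do not test the levels. The log2 fold changes of Cav1, Cav2, Cavin1, Cavin2 and Cavin3 from col1 kept their direction under every setting tried. Scaling by library size alone gave 4 caveolar partners in place of 7 and 2 SPFH genes in place of 1 on col1-ACLP against col1, and moved Ehd2 to -0.0238 there and to 0.0057 between the ACLP groups. Without a filter 1 of the 6 genes was lower on col1-ACLP against col1 in place of 2, and 2 were lower between the ACLP groups in place of 1, as Cav2 at -0.28 then passed, and 2 cholesterol genes passed there in place of 1. DESeq2 also called 2 lower there, with Cav2 at -0.28, and called 6 of the list genes in place of 2, namely 2 caveolar partners, 2 clathrin genes and 2 cholesterol genes. DESeq2 and limma-voom each called 1 neighbour of Cav1 and Cav2 on col1-ACLP+SB against col1. Fitting only the groups compared left 0 caveolar partners and 1 list gene between the ACLP groups.

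Requiring also a log2 fold change beyond 0.58 left 1, 0 and 0 list genes in the 3 comparisons, the 1 being a cholesterol gene, and 0 caveolar partners, clathrin genes or SPFH genes. It left 2 of the 6 genes higher and 0 lower on col1-ACLP, 1 higher and 0 lower on col1-ACLP+SB against col1, and 0 between the ACLP groups, where Cav1 at -0.48 was smaller than the threshold.

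Same-numbered libraries had correlations of their deviations from the group means of -0.0372 to 0.036, so no shared effect of the replicate number was visible. Whether the cultures were paired cannot be told from these values. With the replicate number as a block, 1 of the 6 genes was lower on col1-ACLP against col1, and 0 list genes, and so 0 caveolar partners and 0 cholesterol genes, passed between the ACLP groups. Cav1 there was at -0.47 under the block (adjusted p = 0.0117 in edgeR's quasi-likelihood test).

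With each library left out in turn, genes of the 6 lower on col1-ACLP against col1 numbered 1 to 2, falling to 1 without replicate 1, 2 or 4 of col1, replicate 1 or 4 of col1-ACLP, or replicate 1 or 4 of col1-ACLP+SB. Caveolar partners numbered 4 to 7 on col1-ACLP, with 4 without its replicate 4, 2 to 4 on col1-ACLP+SB against col1, and 0 to 1 between the ACLP groups. Clathrin genes numbered 2 to 4 and cholesterol genes 1 to 3 on col1-ACLP+SB against col1. Between the ACLP groups cholesterol genes numbered 0 to 1 and all list genes 0 to 2, with 0 without replicate 2, 3 or 4 of col1-ACLP or replicate 2 of col1-ACLP+SB. Neighbours passing on col1-ACLP+SB against col1 numbered 0 to 2. Between the ACLP groups Cavin2 ran from -0.0103 to 0.0453 and Ehd2 from -0.0496 to 0.0051, both changing sign without replicate 4 of col1-ACLP. The causes of these shifts were not tested.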
